A study of Mus musculus with 50 samples.

Results

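The solute carrier genes of mouse embryonic stem cells are described here before and after depletion of the kinase Cdk12. Members were all rows of the authors' deposited table whose gene name begins with Slc followed by a digit, and there were 224 of them among 12819 rows. They fell into 46 numbered families and were read in 4 classes. The amino acid class (Slc1, Slc3, Slc6, Slc7 and Slc38) held 33 genes, the mitochondrial class (Slc25) 41, the metal class (Slc30 and Slc39) 20, and the class of all other families 130. The name alone chose them, and no measured value entered the rule. It also admits 5 rows named after a carrier that are not carriers themselves, namely the pseudogene Slc2a4rg-ps, the adaptor gene Slc4a1ap, the regulator genes Slc9a3r1 and Slc9a3r2, and Slc7a6os. None of the 5 was called at either time, and they stay in the counts and medians.

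The groups compared were V6.5 mouse embryonic stem cells (strain C57Bl/6-129) after 24 h and after 48 h without doxycycline (Dox), each set against the same cells kept in Dox (0 h). In all of these cells both endogenous Cdk12 copies are inactivated (Cdk12 -/-), a state the 0 h cells share, and a Dox-inducible, Flag- and HA-tagged Cdk12 transgene (Cdk12 Tg+) replaces them. Dox at 1 µg/mL keeps the transgene on. PolyA-selected RNA came from 2 clones, numbers 28 and 36, each in duplicate at each time, which gives 4 libraries per time, and with 2 clones the comparison rests on few independent lines. Parental floxed cells without transgene (Cdk12 Fl/Fl; Cdk12 Tg-, clone 21), given Dox for 17 days and sampled at the same times with 2 libraries each, served the study as a control for Dox itself and have no column of their own in the table used here. The table gives 1 log2 change per gene and time with the authors' statistics and no value per library. No SD or replicate value can therefore stand beside a gene, and the depth and the level of expression are unknown. In a bulk sample fewer cells with a transcript and less transcript per cell cannot be told apart.

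Every change below is a log2 ratio of the later time to 0 h. Since the header leaves the direction open, the naming order of the 2 times and the sign of the Cdk12 row set it. Cdk12's change in the authors' deposited table was -0.61 at 24 h and -0.61 at 48 h, uncalled at both, and the reverse direction would exchange every rise and fall given here. A gene was called where the authors' posterior probability of differential expression was at least 0.95. All 10 listed embryonic stem cell markers had a row, with changes from -0.18 to 0.60 at 24 h and from -0.46 to 0.43 at 48 h. One of them, Klf2, was called as risen at 24 h, at 0.60 in the authors' deposited table, and not at 48 h. Of 5 fibroblast markers 2 had a row, and Col1a1 was called as risen at 48 h, at 0.89 there, with the authors' Dox mark and an adjusted p of 0.0517 by the table's second statistic. Since no level is given, markers were read only for the presence of a row and its change. Their part in the results was not tested.

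Solute carriers are membrane proteins that move small molecules and ions across membranes without splitting ATP directly. Plasma membrane members bring in glucose, amino acids and vitamins and set the balance of ions, Slc25 carriers link the mitochondrial matrix to the cytosol, and Slc30 and Slc39 proteins move zinc and related metals out of and into the cytosol. Many work in pairs or exchange cycles, so that the supply of an amino acid depends on several genes at once. Rapidly dividing stem cells are known to rely on glucose, glutamine and cystine uptake.

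The promoters of the 6 genes called as fallen at both times are shown first. Slc12a8, called at 24 h only, is not among them. RefSeq promoters of build GRCm38.p6, from 250 bases before to 50 bases after the start, were matched by symbol for 169 of 224 members and for 5 of these 6 genes. Slc47a1 is named only. Capitals mark the motifs searched on both strands, which were the TATA box TATAAA, the CCAAT box CCAAT, the GC box GGGCGG, the E-box CACGTG, the cyclic AMP element TGACGTCA and the amino acid response core TGATGNAA. Overlaps between them were allowed.
Slc44a3 (chr3:121532295-121532594, minus strand): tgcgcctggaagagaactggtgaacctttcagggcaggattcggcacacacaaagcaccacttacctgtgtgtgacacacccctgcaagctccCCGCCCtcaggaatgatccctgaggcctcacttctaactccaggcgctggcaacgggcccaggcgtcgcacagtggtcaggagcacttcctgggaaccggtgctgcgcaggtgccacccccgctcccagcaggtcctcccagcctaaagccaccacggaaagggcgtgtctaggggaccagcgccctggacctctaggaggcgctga
Slc38a9 (chr13:112660516-112660815, plus strand): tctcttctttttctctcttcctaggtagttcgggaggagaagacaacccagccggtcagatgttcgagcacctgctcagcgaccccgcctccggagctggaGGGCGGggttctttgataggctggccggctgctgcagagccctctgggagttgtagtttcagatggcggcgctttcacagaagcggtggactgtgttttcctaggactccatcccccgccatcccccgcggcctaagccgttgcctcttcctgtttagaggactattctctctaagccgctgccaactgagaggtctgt
Slc9a8 (chr2:167421460-167421759, plus strand): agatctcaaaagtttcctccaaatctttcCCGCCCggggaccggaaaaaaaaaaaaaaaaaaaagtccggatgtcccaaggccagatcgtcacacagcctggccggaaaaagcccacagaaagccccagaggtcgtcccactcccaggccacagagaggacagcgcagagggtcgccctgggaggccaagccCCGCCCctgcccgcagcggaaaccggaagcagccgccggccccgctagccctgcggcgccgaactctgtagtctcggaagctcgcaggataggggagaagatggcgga
Slc27a2 (chr2:126552774-126553073, plus strand): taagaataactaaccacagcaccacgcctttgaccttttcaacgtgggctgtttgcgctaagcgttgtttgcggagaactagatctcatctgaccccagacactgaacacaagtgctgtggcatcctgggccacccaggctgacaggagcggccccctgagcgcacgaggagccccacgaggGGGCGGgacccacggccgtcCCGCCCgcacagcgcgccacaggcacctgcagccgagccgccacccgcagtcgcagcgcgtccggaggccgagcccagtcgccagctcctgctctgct
Slc1a3 (chr15:8710758-8711057, minus strand): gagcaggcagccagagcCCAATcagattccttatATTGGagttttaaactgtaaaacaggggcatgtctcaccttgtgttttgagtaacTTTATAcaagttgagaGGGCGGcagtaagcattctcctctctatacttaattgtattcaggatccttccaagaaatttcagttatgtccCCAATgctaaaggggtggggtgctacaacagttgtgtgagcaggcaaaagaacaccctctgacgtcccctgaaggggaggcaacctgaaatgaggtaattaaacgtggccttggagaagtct

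Among these sequences, the Slc27a2 promoter holds a GC box on each strand, that of Slc9a8 holds 2 on the opposite strand, and those of Slc44a3 and Slc38a9 hold 1 each. The Slc1a3 promoter holds 1 GC box, 3 CCAAT boxes and 1 TATA box and had a GC content of 45.3%, the lowest among promoters of members that fell by 48 h. Members called as fallen at 48 h carried a GC box in 12 of 12 genes with a promoter (100%), against 133 of 169 solute carrier genes (78.7%) and 6501 of 9114 genes of the table with a promoter (71.3%). Members called as risen at 48 h carried it in 5 of 6 genes with a promoter (83.3%). Over all 32851 promoters of the reference, expressed here or not, 35.7% held it. A gene was counted for a motif if any of its promoters held it, and the 169 genes had 222 promoters. The reference shares count single promoters, so they are not on the same unit as the shares of genes. The amino acid response core was found in 0 of these 12 genes, in 5 of 169 solute carrier genes (2.96%), in 2.64% of the table's genes and in 3.97% of all reference promoters. The E-box was in 1 of the 12, in 29 of 169 solute carrier genes (17.2%), in 12.1% of the table's genes and in 7.15% of all reference promoters. The CCAAT box was in 5 of the 12 (41.7%), against 45% of solute carrier genes, 43.2% of the table's genes and 37.4% of all reference promoters. The TATA box was in 1 of the 12 (8.33%), against 10.1% of solute carrier genes, 8.42% of the table's genes and 13.6% of all reference promoters. The cyclic AMP element was in none of the 12, in 1.78% of solute carrier genes, in 3.57% of the table's genes and in 1.79% of all reference promoters. Of the 6 risen members with a promoter, 3 held a CCAAT box (50%) and 1 a TATA box (16.7%). None of these risen members held the E-box, the cyclic AMP element or the amino acid response core. Such matches describe letters in these windows and no site.

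After 24 h without Dox 7 solute carrier genes had fallen and none had risen. In the authors' deposited table Slc44a3, a choline transporter-like protein, fell by 2.68 on the log2 scale. Slc38a9, the lysosomal arginine-sensing member of the Slc38 family that signals to mTORC1, fell to 35.5% of its 0 h level, and Slc47a1, an exporter of organic cations, fell by 1.35 on the log2 scale. Slc9a8, a sodium-proton exchanger of the Golgi and other compartments, fell by 1.10 and Slc27a2, a very long-chain acyl-CoA synthetase and fatty acid transport protein, by 0.90. Slc12a8, a member of the cation-chloride family, fell by 0.81 and Slc1a3, a sodium-coupled glutamate and aspartate transporter, by 0.77. These 7 were 3.2% of the 219 members with a posterior probability, against 143 of 12663 rows of the table (1.13%) called in either direction and 0.679% called as fallen. For rises the share was 0% of members and 0.45% of all rows. The table also holds adjusted p values from a second statistic, for which neither the test nor the libraries are named. It gave 4 of the 7 an adjusted p of at most 0.05, namely Slc44a3 at 0.000121, Slc47a1 at 0.0028, Slc9a8 at 0.0152 and Slc38a9 at 0.0469. By that statistic 1.83% of the 218 members with an adjusted p were called at 24 h, all as fallen. Over all rows it called 0.167%, 0.151% as fallen and 0.0159% as risen. A minimum change of 2-fold left 4 of the 7, all falls. These were 1.83% of the 219 members, against 0.261% of all rows as fallen. Over all rows 0.292% passed in either direction and 0.0316% as risen. The other 3 calls had adjusted p values of 0.421 for Slc27a2, 0.661 for Slc1a3 and 0.681 for Slc12a8. No member passed as risen by it either.

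By 48 h 25 solute carrier genes were called, 18 as fallen and 7 as risen. These were 11.8% of the 211 members with a posterior probability, against 7.69% of all rows. Falls made up 8.53% of members against 3.97% of all rows, and rises 3.32% against 3.72%, so that the share of rises lay near that of the whole table. Of the 7 genes called at 24 h, 6 were called as fallen again at 48 h, a comparison made against the same 0 h libraries. Slc12a8 was not, at -0.39 and a posterior probability of 0.135 in the authors' deposited table. Called falls at 48 h reached at least 2-fold in 10 genes, 4.74% of members against 1.51% of all rows. Called rises did in 2, 0.948% against 1.17% (2.68% of all rows in either direction). The smallest called change was 1.44-fold. The second deposited statistic passed 12 of the 18 falls and 1 of the 7 rises. With members not called by the posterior probability included, it passed 14 falls and 1 rise. These were 6.45% and 0.461% of 217 members, against 1.99% and 1.72% of all rows (3.71% in either direction). With the posterior probability required to reach 0.99, 15 falls and 6 rises were called at 48 h, 7.11% and 2.84% of members. The share of all rows called was then 6.36%, with 3.18% in each direction. At 24 h all 7 falls remained, 3.2% of members. Of all rows 0.9% were called then, 0.545% as fallen and 0.355% as risen.

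**Figure D1:**
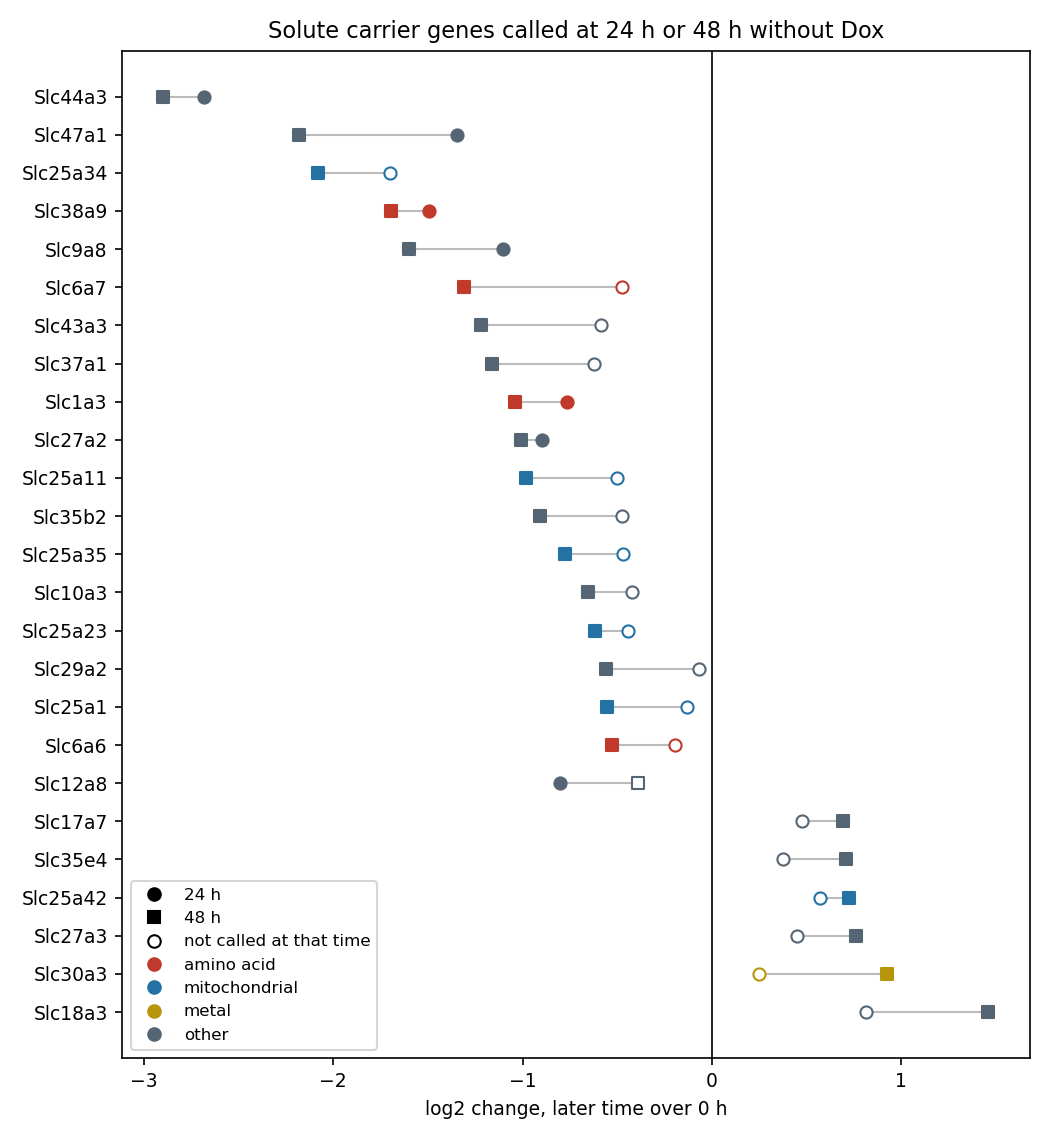
Log2 change (later time over 0 h) of 25 of the 26 solute carrier genes called at 24 h or 48 h, 1 gene per line, with circles for 24 h and squares for 48 h. Filled symbols were called at that time, open ones were not called or had no posterior probability, and colours give the class. Slc44a3 has the lowest value at both times and Slc18a3 the highest at 48 h.

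**Figure D2:**
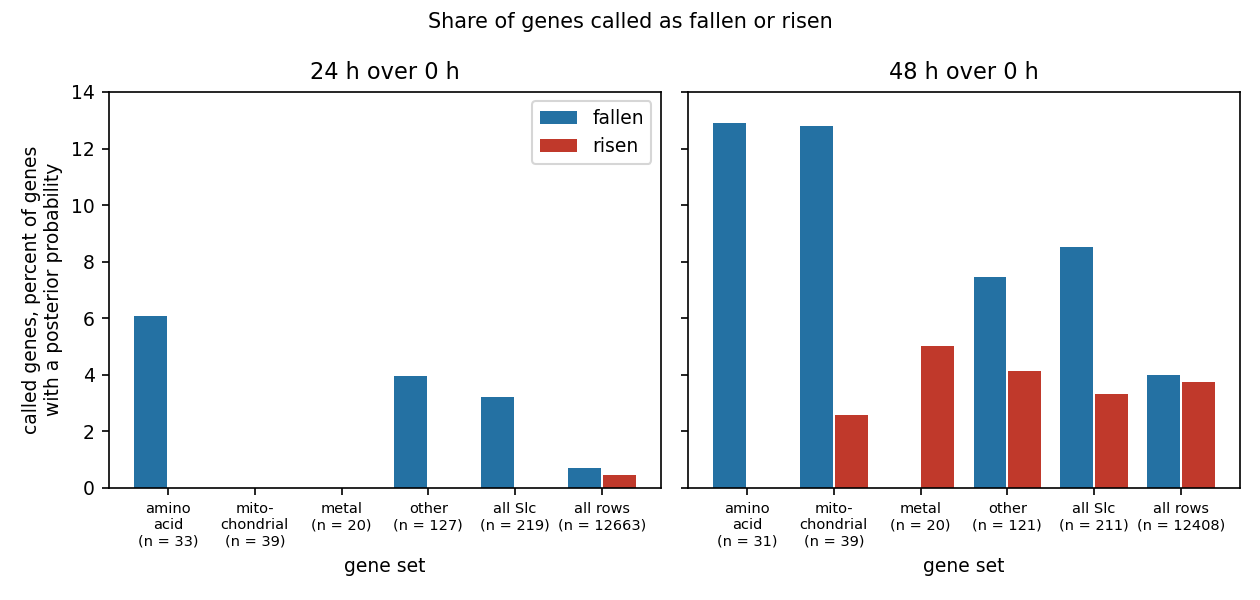
Percent of genes with a posterior probability that were called as fallen or risen, for the 4 classes, all solute carrier genes and all rows of the table. At 48 h the amino acid and mitochondrial classes had 12.9% and 12.8% called as fallen, against 3.97% of all rows.

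In the amino acid class 4 of 31 members with a posterior probability were called as fallen at 48 h and none as risen, that is 12.9% against 3.97% of all rows. In the authors' deposited table Slc38a9 stood at 30.9% of its 0 h level at 48 h, a fall by 1.69 on the log2 scale with an adjusted p of 0.00019 by the second statistic. Slc6a7, a proline transporter of neurons, fell by 1.31 at 48 h after -0.48 at 24 h, and it carries the authors' Dox mark, which the table does not define. Slc1a3 fell by 1.04 at 48 h with an adjusted p of 0.00942 by the second statistic. Slc6a6, the taurine transporter, fell by 0.53 with a posterior probability of 0.998 and an adjusted p of 0.29 in the authors' deposited table. The class median was -0.19 at 24 h and -0.19 at 48 h, where all rows had a median of 0.01 at each time. At 24 h 27 of its 33 genes lay below 0 (81.8%), against 47.8% of all rows, and at 48 h 21 of 32 did (65.6%), against 48.6%.

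The lower position of the class was uneven across its families. Slc6, sodium- and chloride-coupled transporters, had the lowest median of its 5 families at 48 h, -0.54 over 7 genes, of which 6 lay below 0. Its exception was the creatine transporter gene Slc6a8 at 0.39, uncalled, in the authors' deposited table. Slc6a14, a transporter of neutral and cationic amino acids, stood at 50.1% of its 0 h level at 48 h with a posterior probability of 0.33, uncalled, in the authors' deposited table. Slc38 had a median of -0.21 over 9 genes, with 5 below 0 and 4 above. Within it Slc38a4, a neutral and cationic amino acid transporter from an imprinted gene, stood at -0.93 and was just short of a call at a posterior probability of 0.901, while its adjusted p by the second statistic was 0.0266. Slc38a2, which is known to respond to amino acid supply, stood at 0.31 with a posterior probability of 0.732, and the glutamine transporter gene Slc38a3 at 0.34, both uncalled at 48 h in the authors' deposited table. The family thus held values of opposite sign.

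No Slc7 gene was called at either time, against 1.13% of all rows at 24 h and 7.69% at 48 h. The partner gene Slc3a2 was not called at 24 h and has no posterior probability at 48 h, so it could not be called then. Slc7a11, the light chain of the cystine-glutamate exchanger, had the lowest value of the Slc7 family in the authors' deposited table, -1.46 at 24 h and -0.93 at 48 h. Its posterior probabilities were 0.36 and 0.163 and its adjusted p values 1 and 0.999, so neither statistic called it. Slc3a2, the heavy chain shared by the large neutral amino acid and cystine exchangers, stood at -0.13 and -0.20, and Slc7a5, the light chain of the large neutral amino acid exchanger, at -0.22 and -0.37, in the authors' deposited table. The cationic transporters Slc7a1, Slc7a3 and Slc7a2 stood at -0.18, -0.19 and 0.34 at 48 h. Slc1a5, the main glutamine importer of many dividing cells, stood at -0.03 at 24 h and -0.16 at 48 h there. The 11 Slc7 rows, Slc7a6os among them, had a median of -0.13 at 48 h, with 7 below 0. The 5 Slc1 genes all lay below 0 at 24 h, and of the 4 with a value at 48 h 2 did.

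In the mitochondrial class 5 of 39 carriers with a posterior probability were called as fallen at 48 h and 1 as risen, 12.8% and 2.56%, against 3.97% and 3.72% of all rows. None was called at 24 h, against 1.13% of all rows. In the authors' deposited table Slc25a34 stood at -1.70 at 24 h, uncalled at a posterior probability of 0.661, and fell by 2.08 at 48 h, to 23.7% of its 0 h level. Slc25a35 fell by 0.77 at 48 h. Slc25a11, the malate-oxoglutarate carrier, fell by 0.98 with an adjusted p of 0.00581 by the second statistic. It carries the authors' Dox mark and had no posterior probability at 24 h, when it stood at -0.50. Slc25a23, a calcium-regulated ATP-magnesium and phosphate carrier, fell by 0.62 and the citrate carrier gene Slc25a1 by 0.55. For Slc25a23 and Slc25a1, as for Slc25a35, the second statistic gave adjusted p values of 0.175, 0.231 and 0.182, so these calls rest on the posterior probability. Slc25a42, a carrier of coenzyme A, rose by 0.72 at 48 h in the authors' deposited table with an adjusted p of 0.0757.

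The rest of the Slc25 family spread on both sides of 0. At 48 h 28 of 41 carriers lay below 0 (68.3%) and the median was -0.16, and at 24 h 23 did with a median of -0.05. The ADP-ATP carrier genes differed little from 0 h for Slc25a5, at -0.05 and -0.06, while Slc25a4 stood at 0.10 at 24 h and -0.42 at 48 h without a posterior probability at the later time, in the authors' deposited table. The phosphate carrier gene Slc25a3 stood at 0.00 and -0.01. Both aspartate-glutamate carrier genes were lower at 48 h and uncalled, Slc25a12 at -0.85 with a posterior probability of 0.159 and Slc25a13 at -0.67 with 0.0463. Slc25a39, needed for mitochondrial glutathione import, stood at -0.69 with a posterior probability of 0.931. The largest uncalled values above 0 belonged to the pyrimidine nucleotide carrier gene Slc25a36 at 0.69, Slc25a48 at 0.67 and the peroxisomal carrier gene Slc25a17 at 0.60, in the authors' deposited table.

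The metal class had no called fall and 1 called rise at 48 h, 0% and 5% of 20 genes, against 3.97% and 3.72% of all rows. The risen gene was Slc30a3, which loads zinc into synaptic vesicles of neurons. In the authors' deposited table it stood at 0.25 at 24 h and rose by 0.93 at 48 h with a posterior probability of 0.997 and an adjusted p of 0.115 by the second statistic. Other members lay between -0.59 and 0.35. Zinc exporters of the Slc30 family lay below 0 in 7 of 9 genes at 48 h, with Slc30a2 at -0.47 and the plasma membrane exporter gene Slc30a1 at -0.47, against 5 of 9 at 24 h, when Slc30a1 stood at 0.03. Slc30a9 stood at 0.35. Slc39 importers were nearly balanced at 48 h, 6 below 0 and 5 above, from Slc39a2 at -0.59 and Slc39a11 at -0.53 to Slc39a4 at 0.24 and Slc39a14, a manganese and iron importer, at 0.26, in the authors' deposited table. Slc39a11 came closest to a call among them, with a posterior probability of 0.92. Slc39a1, a widely expressed zinc importer gene, stood at 0.07 at both times. The class median was -0.01 at 24 h and -0.17 at 48 h.

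**Figure D3:**
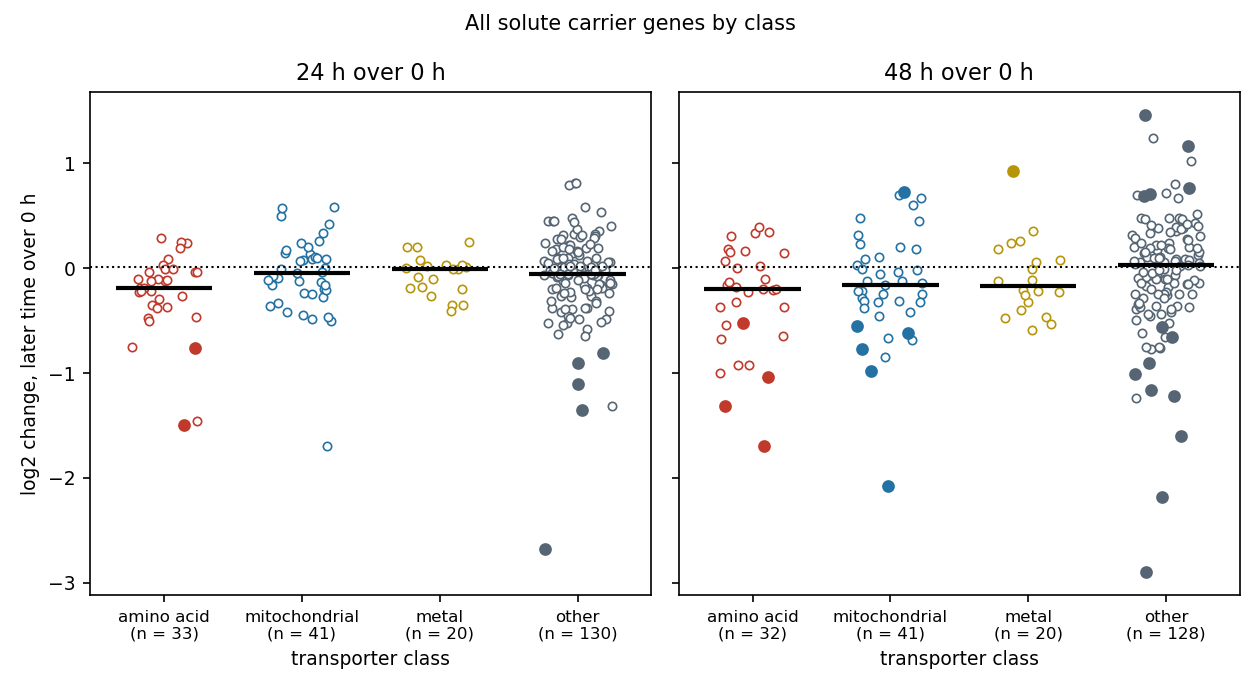
Log2 change (later time over 0 h) of every solute carrier gene by class at 24 h and 48 h. Filled points were called, open points were not called or had no posterior probability, black bars are class medians and the dotted line is the median over all rows, 0.01. At 48 h the medians were -0.19, -0.16, -0.17 and 0.03 for the amino acid, mitochondrial, metal and other classes.

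The other families had 9 called falls and 5 called rises among 121 genes with a posterior probability at 48 h, 7.44% and 4.13%, against 3.97% and 3.72% of all rows. Their median of 0.03 lay near that of all rows, and 62 of 128 lay below 0. The steepest falls were there. In the authors' deposited table Slc44a3 fell by 2.90 at 48 h, to 13.4% of its 0 h level, with an adjusted p of 6.76e-06 by the second statistic. Slc47a1 fell by 2.18, to 22% of its 0 h level, with an adjusted p of 3.72e-10, the smallest of any member. Slc9a8 fell by 1.60 with an adjusted p of 4.78e-07. Slc43a3, a purine nucleobase transporter, fell by 1.22 and Slc27a2 by 1.01. Slc35b2, which brings the sulfate donor into the Golgi, fell by 0.91, Slc10a3 by 0.65 and the nucleoside transporter gene Slc29a2 by 0.56. For Slc10a3 and Slc29a2 the second statistic gave adjusted p values of 0.194 and 0.259.

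Slc37a1, a member of the sugar-phosphate exchanger family, fell by 1.16 at 48 h with an adjusted p of 0.000885 in the authors' deposited table. Both genes next to it in the annotation and in the table were also called as fallen. They were Rsph1, a gene of the ciliary radial spoke, at -1.36, and the cyclic GMP phosphodiesterase gene Pde9a at -2.20. At 24 h the 3 genes stood at -0.62 for Slc37a1, -0.55 for Rsph1 and -0.84 for Pde9a, none of them called. Among the other members that either statistic called, no neighbouring or overlapping gene of the table was called at either time. Some of these neighbours had no posterior probability at 24 h or at 48 h and could not be called then. Of all rows with a posterior probability, 1.13% were called at 24 h and 7.69% at 48 h in either direction. Whether neighbours of members differ from these shares was not tested. Slc25a11 and Slc25a35 overlap Rnf167 and Rangrf in the annotation, which stood at -0.28 and -0.23 at 48 h, and no source names whether reads were counted by strand, so reads of overlapping genes cannot be told apart.

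Among the other families 5 genes rose at 48 h, of which 4 are described. Slc18a3, the vesicular acetylcholine transporter, rose by 1.46 at 48 h in the authors' deposited table after 0.81 at 24 h, with a posterior probability of 0.97 and an adjusted p of 0.0541. Slc27a3, an acyl-CoA synthetase of the fatty acid transport family, rose by 0.76, Slc35e4 by 0.71 and Slc17a7, a vesicular glutamate transporter, by 0.69, in the authors' deposited table. Their adjusted p values by the second statistic were 0.0608 for Slc27a3, 0.115 for Slc35e4 and 0.139 for Slc17a7. Relatives moved in opposite directions in some families. Slc27a2 fell while Slc27a3 rose, and Slc35b2 fell while Slc35e4 rose.

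The 16 rows of the Slc2, Slc5, Slc45 and Slc50 families, which hold the sugar transporters, had a median of 0.17 at 48 h with 10 above 0 and none called at either time. They also include the iodide carrier gene Slc5a5, the vitamin carrier gene Slc5a6 and Slc2a4rg-ps, and without Slc2a4rg-ps the median was 0.15 over 15. In the authors' deposited table Slc2a1, the glucose transporter of most cells, stood at 0.13 at 24 h and 0.39 at 48 h, and Slc2a3, a high-affinity glucose transporter, at -0.14 and -0.08. Slc45a3 had the highest value of this group, 1.02 at 48 h with a posterior probability of 0.905. Among 8 monocarboxylate family genes Slc16a1, which moves lactate and pyruvate, stood at -0.42 and the lactate exporter gene Slc16a3 at 0.38 at 48 h, and Slc16a14 stood at -0.77, all 3 uncalled in the authors' deposited table. The 14 rows of the bicarbonate and anion transporter families Slc4 and Slc26, Slc4a1ap included, had a median of 0.18. Without Slc4a1ap it was 0.19 over 13. None of the 14 was called, against 7.69% of all rows at 48 h. These families included Slc4a11 at 1.24 with a posterior probability of 0.508 and the sulfate transporter gene Slc26a2 at 0.80 with 0.0662. The nucleotide-sugar transporter family Slc35, with 20 genes, had a median of 0.03 over the 19 with a value at 48 h. Within it Slc35d2 stood at -0.76 and uncalled beside the called Slc35b2 and Slc35e4. Nucleoside transporter genes lay lower, with a median of -0.36 over 5 genes, of which Slc29a2 was called.

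Further families were given by the genes with the best known roles. The iron exporter gene Slc40a1 stood at -1.32 at 24 h and -0.52 at 48 h where its posterior probabilities were 0.0261 and 0.0359, and the iron importer gene Slc11a2 at -0.02 and 0.04, in the authors' deposited table. The sodium-potassium-chloride cotransporter gene Slc12a2 stood at -0.19 and -0.17. The folate carrier gene Slc19a1 stood at -0.16 and -0.44, with no posterior probability at 48 h. Slc15a1, an uptake transporter of small peptides, stood at -0.52 and -1.24. At 48 h its posterior probability of 0.94 missed the call and its adjusted p of 0.0482 by the second statistic did not. Large changes without a call were few. At 24 h they were Slc25a34, Slc7a11 and Slc40a1, the 3 uncalled genes with at least 2-fold change, and at 48 h Slc15a1, Slc4a11 and Slc45a3.

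Not every member could be called. At 24 h 5 members had a change and no posterior probability, with values from -0.50 to 0.31, and at 48 h 10 had, with values from -0.45 to 0.48. Of the 224 members 3 had no change at 48 h. The authors' Dox mark at 48 h was set for 2 members, both named above. Without marked genes 16 falls and 7 rises were called, 7.66% and 3.35% of 209 members. Over all rows the shares were 3.34% and 3.22%, and 6.57% in either direction. At 24 h no member carried the mark, and 1.11% of unmarked rows were called, 0.656% as fallen.

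Gene length did not enter the rule. Annotated length from first to last base in GRCm38.p6 was available for all 224 members. The 7 genes that fell at 24 h spanned 35.2 to 147 kb, with a median of 72.8 kb, against 23.5 kb for members not called. By the quartiles of length over all rows of the table, calls at 24 h numbered 0 of 44 and 0 of 58 in the 2 shorter quartiles, 2 of 74 in the next and 5 of 43 in the longest. In the longest quartile that is 11.6%, against 0.798% of all rows of that quartile. Across all rows the share of falls was nearly flat over length, from 0.637% to 0.798%. At 48 h the falls lay at both ends of the length range, 6 of 41 in the shortest quartile, 4 of 54 and 2 of 73 in the middle ones and 6 of 43 in the longest. Over all rows the shares at 48 h were 5.49%, 3.58%, 3.04% and 3.84% from short to long. The added falls included the short mitochondrial carrier genes Slc25a1 at 3.01 kb, Slc25a11 at 3.51 kb, Slc25a35 at 4.42 kb and Slc25a34 at 5.07 kb. Called rises at 48 h numbered 3 of 41, 2 of 54, 1 of 73 and 1 of 43 from short to long. Over all rows the shares of rises were 3.09%, 3.62%, 3.63% and 4.42%. Median length at 48 h was 20.5 kb for falls, 12.2 kb for rises and 26.2 kb for members not called. As a description across genes, which are not replicates, Spearman's rho between length and change was -0.20 at 24 h over 224 members and 0.08 over 12707 rows. At 48 h it was -0.09 over 221 members and 0.09 over 12655 rows. All points share the same libraries.

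**Figure D4:**
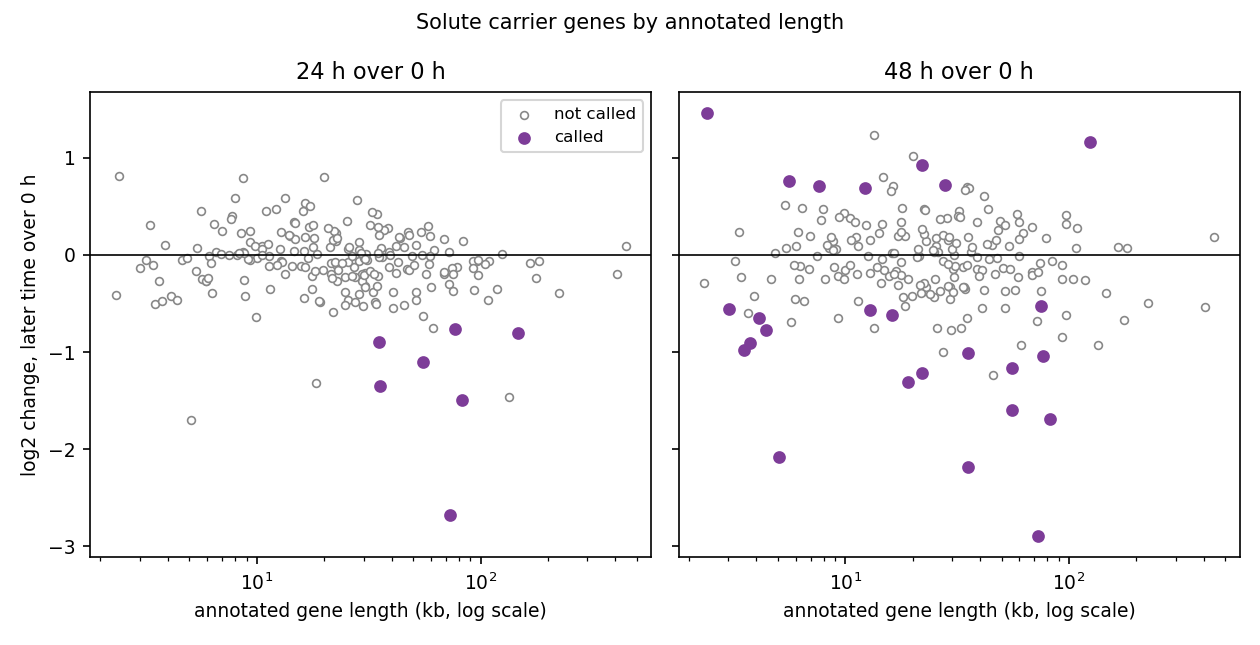
Log2 change (later time over 0 h) of each solute carrier gene against its annotated length in kb on a log scale, at 24 h and 48 h. Filled points were called and open points were not called or had no posterior probability. All 7 called genes at 24 h were at least 35.2 kb long, and at 48 h called falls began at 3.01 kb.

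Other transport genes were read for comparison from lists of related function. Genes of the Slco family, organic anion transporters outside the name rule, numbered 4, and Slco4a1 was called as risen at 48 h, by 0.67 in the authors' deposited table, where 3.72% of all rows were called as risen and 3.97% as fallen. Among 24 ATP-driven ABC transporter genes Abca3, a lipid transporter, fell by 0.62 and the cholesterol exporter gene Abcg1 rose by 0.71, 4.17% in each direction, with a list median of -0.03. Of 26 P-type ATPase genes with a posterior probability 3 rose and no gene fell at 48 h by the call, 11.5% and 0%, against 3.72% and 3.97% of all rows, with a median of 0.01. They were the proton pump gene Atp12a at 1.80, the lipid flippase gene Atp9a at 0.86 and the copper pump gene Atp7b at 0.54, in the authors' deposited table. The 12 listed mitochondrial transport genes without an Slc25 name had a median of -0.22 at 48 h. At each time 1 of them was called as fallen, not the same gene, and none as risen. That is 8.33%, against 0.679% of all rows at 24 h and 3.97% at 48 h. The gene called at 24 h, Sfxn5, stood at -1.01 then and at -1.42 at 48 h, where its posterior probability was 1.43e-08. By the second statistic 2 of the 12 passed as fallen at 48 h, against 1.99% of all rows. None of 20 metal handling genes was called at either time, against 1.13% of all rows at 24 h and 7.69% at 48 h. Their median was 0.01 at 48 h. Of 20 genes known to follow amino acid limitation 2 were called as risen at 48 h and none as fallen, 10% and 0%, against 3.72% and 3.97% of all rows, with a list median of -0.06. These were Sesn2 at 0.78 and Ddit4 at 0.96, inhibitors of mTORC1 signalling, and Ddit4 carries the Dox mark.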

How the data were processed

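PolyA-selected RNA from 18 libraries was sequenced by the authors, with RNA integrity numbers from 9.1 to 10 per the labels. Tools listed in the submitters' processing notes are BWA 0.7.12-r1039, DESeq 1.22.1, STAR, SAMtools 1.3, RSEM and bedtools 2.20.1, and the builds are mm10 and mm9. Their roles, and the tool behind each column, are not stated there, though the authors' deposited table has EBSeq in its name. The 32 chromatin immunoprecipitation and control libraries are not analysed here.

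The posterior probabilities (a score between 0 and 1 for each gene), the log2 fold changes and the adjusted p-values of a second statistic were deposited by the authors, per the file headers, for 2 comparisons. No column holds values per library, so no model was fitted, depth is unknown, and the spread between libraries enters through the authors' statistics alone. The sign of each deposited change was reversed, which puts the later time on top. Counts, medians and shares were computed in Python 3.11.15 with pandas 2.3.3 and scipy 1.17.1. Counting was tested on simulated calls. Members were counted against all genes with a posterior probability, with no test of their own.

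Members, classes and lists were chosen with earlier results of these data known, so patterns already seen there gain no independent support. Named members were those called at either time or by either statistic, 22 genes with well-known roles, and the 3 largest uncalled values in each direction and class at 48 h, 70 in all; a few of these and of the other lists' genes are not reported here. Slc37a1's neighbours were named after their values were seen, and the rows that are not carriers, Slc5a5, Slc5a6 and Klf2 were named outside this rule. All 224 names matched the RefSeq annotation of GRCm38.p6, by symbol or synonym, as did 12707 of 12819 rows. Alternatives were a stricter posterior probability (0.99), a 1.5-fold or a 2-fold minimum change, the second statistic as the call, removal of Dox-marked genes, medians over genes with a posterior probability, wider classes and centring on the median of all rows.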

Additional observations from a re-analysis of the deposited data

How the results depend on the processing

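Of the counts of called solute carrier genes, falls at 24 h were 4 with a minimum change of 2-fold and 4 by the second statistic, against 7. Falls at 48 h were 10 with a minimum of 2-fold, against 18, and rises at 48 h were 2 with that minimum and 1 by the second statistic, against 7. A fold minimum can only remove calls, and for the second statistic the cause was not tested. The other alternatives for the counts over all solute carrier genes, a posterior probability of at least 0.99, a 1.5-fold minimum and removal of Dox-marked genes, stayed within 1.5 times. None of the 48 alternatives for the 10 medians changed a sign, including one chosen after seeing the data that leaves out the 5 rows not named as carriers, and the largest shift was 0.0617 on the log2 scale. Called mitochondrial falls at 48 h numbered 3 at a posterior probability of at least 0.99, 2 by the second statistic and 1 with a 2-fold minimum, against 5. No paired analysis was possible because the table used here holds no values per library, and for the same reason no replicate or clone could be left out. Depth and expression level, which limit every call, are unknown.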

Other observations

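Sfxn5, a sideroflexin of the mitochondrial inner membrane, had a change of -1.01 at 24 h with a posterior probability of 0.999992 and of -1.42 at 48 h with a posterior probability of 1.43e-08, while its adjusted p by the second statistic at 48 h was 0.00382 in the authors' deposited table.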
